A study of Rattus norvegicus with 6 samples.

Results

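Mesothelium is the single sheet of cells that lines the pleura, the pericardium and the abdominal cavity. It is a surface epithelium with mesenchymal traits, and it makes WT1, a zinc finger transcription factor, and ALDH1A2, the enzyme that oxidizes retinaldehyde to retinoic acid. It also carries mesothelin (MSLN), an anchored surface glycoprotein, and the cytokeratins of simple epithelia, which several carcinomas make too. In the rat data described here, 8 symbols linked to this lining were looked up in a table of mRNA levels from 6 PAIII tumors: Wt1, Aldh1a2, Gpm6a, Msln, Upk3b, Lrrn4, Gpc3 and Prph. The genes were chosen by name with earlier results of these tumors known, and Wt1, Aldh1a2, Gpm6a, Gpc3 and Prph were selected on the study's own comparison of digitoxin-treated with control tumors. That comparison is therefore given for these 5 as a description with no test. Of the 8 symbols, 6 were found, each on 1 of the 17557 rows, and Upk3b and Lrrn4 were not analysed here.

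PAIII is a transplantable prostate carcinoma of the Lobund-Wistar rat, kept by serial passage. The cells were injected under the skin of the flank at an age of 2 months. Rats A1, A6 and A12 received 0.03 mg/kg digitoxin, a cardiac glycoside that blocks the sodium pump, each day from day 10, and rats B5, B9 and B14 received the vehicle. Primary tumors were taken on day 40, with 1 library per rat and n = 3 in each group. The treated rats were picked for low and the controls for high serum IL-6 and CINC-1, so treatment and serum level cannot be told apart. Levels are FPKM, a fragment count divided by transcript length and by the library's mapped fragments, so that genes of unequal length can be compared. The depth behind each value is unknown, and a listed 0 need not mean absence. Polr2l, a subunit of the RNA polymerases, was listed at 0 in B14 and at 21.8 FPKM in A12, and the collagen gene Col1a2 was listed at 0 in all tumors beside Col1a1 at up to 1665 FPKM.

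The libraries did not divide by treatment. In A1, A6, B5 and B9 the 11 alveolar genes found summed to between 28276 and 85922 FPKM and the 7 airway genes to between 21106 and 131843 FPKM. In A12 and B14 the sums were 41.0 and 62.8 FPKM for alveolar and 9.62 and 7.04 FPKM for airway genes, and 9 of the 11 alveolar genes were under 1 FPKM in both. All 6 samples carry the label PAIII tumor. Earlier results of these data also raised the doubt, not settled here, that the labels of A1 and B9 may be exchanged. Groups follow the labels here and no exchange was fitted, so directions hold only for the libraries as labelled, and the fold changes without A1 and B9 are given with the comparison.

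The DNA ahead of the start site is given for the 5 genes of the table that have an entry in RefSeq's promoter table, to show how unlike these stretches are. Each line holds the 250 bases before 1 annotated start in the rat build GRCr8, read 5′ to 3′ on the gene's own strand. RefSeq's table has no entry for Msln. Capitals mark a match to any of 4 motifs searched on both strands: GCGNGGGCG, bound by EGR proteins and by WT1, GGAATG, bound by TEAD proteins, TATAAA, the TATA box, and AGATAA, bound by GATA factors.
Wt1, chr3:112021759-112022008, plus strand: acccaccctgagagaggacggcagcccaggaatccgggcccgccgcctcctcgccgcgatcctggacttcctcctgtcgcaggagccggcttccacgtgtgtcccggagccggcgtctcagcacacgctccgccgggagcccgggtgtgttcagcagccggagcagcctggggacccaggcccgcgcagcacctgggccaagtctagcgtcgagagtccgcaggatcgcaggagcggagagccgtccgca
Aldh1a2, chr8:80758391-80758640, plus strand: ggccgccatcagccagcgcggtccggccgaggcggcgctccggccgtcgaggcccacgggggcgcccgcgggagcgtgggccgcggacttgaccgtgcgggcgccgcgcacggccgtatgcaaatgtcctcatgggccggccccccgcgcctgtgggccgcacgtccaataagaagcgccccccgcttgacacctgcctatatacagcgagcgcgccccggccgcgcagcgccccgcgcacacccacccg
Gpm6a, chr16:43706462-43706711, minus strand: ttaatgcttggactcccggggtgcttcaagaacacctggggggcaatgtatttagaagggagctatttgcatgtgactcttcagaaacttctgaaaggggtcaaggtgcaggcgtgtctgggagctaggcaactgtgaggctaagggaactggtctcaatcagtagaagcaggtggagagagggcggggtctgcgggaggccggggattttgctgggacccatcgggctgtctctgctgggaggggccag
Gpc3, chrX:137157599-137157848, minus strand: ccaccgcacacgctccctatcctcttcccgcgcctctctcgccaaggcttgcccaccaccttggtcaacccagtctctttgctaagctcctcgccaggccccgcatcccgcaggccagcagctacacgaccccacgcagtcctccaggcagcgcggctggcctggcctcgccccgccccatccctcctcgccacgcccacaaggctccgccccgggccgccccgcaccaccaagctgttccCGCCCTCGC
Prph, chr7:132097039-132097288, plus strand: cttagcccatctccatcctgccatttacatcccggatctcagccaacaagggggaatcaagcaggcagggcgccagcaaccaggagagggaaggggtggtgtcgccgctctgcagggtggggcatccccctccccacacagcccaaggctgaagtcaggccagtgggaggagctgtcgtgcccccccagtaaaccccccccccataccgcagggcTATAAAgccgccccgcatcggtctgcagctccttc

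The stretch ahead of Aldh1a2 was 77.2% G and C with 41 CG pairs, and those of Wt1 and Gpc3 were both 71.6% G and C with 27 and 22 CG pairs. The Gpm6a stretch was 56.8% G and C with 6 CG pairs, and that of Prph 64.4% with 9, against medians of 51.2% and 5 pairs over 33469 stretches of the same length. The GCGNGGGCG motif occurred once, ahead of Gpc3, and in 4.29% of all stretches. TATAAA occurred once, ahead of Prph, and in 12.9% of all. GGAATG and AGATAA, held by 12.1% and 10.3% of all, were not found in the 5 shown. A match describes letters and not a bound site.

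**Figure D1:**
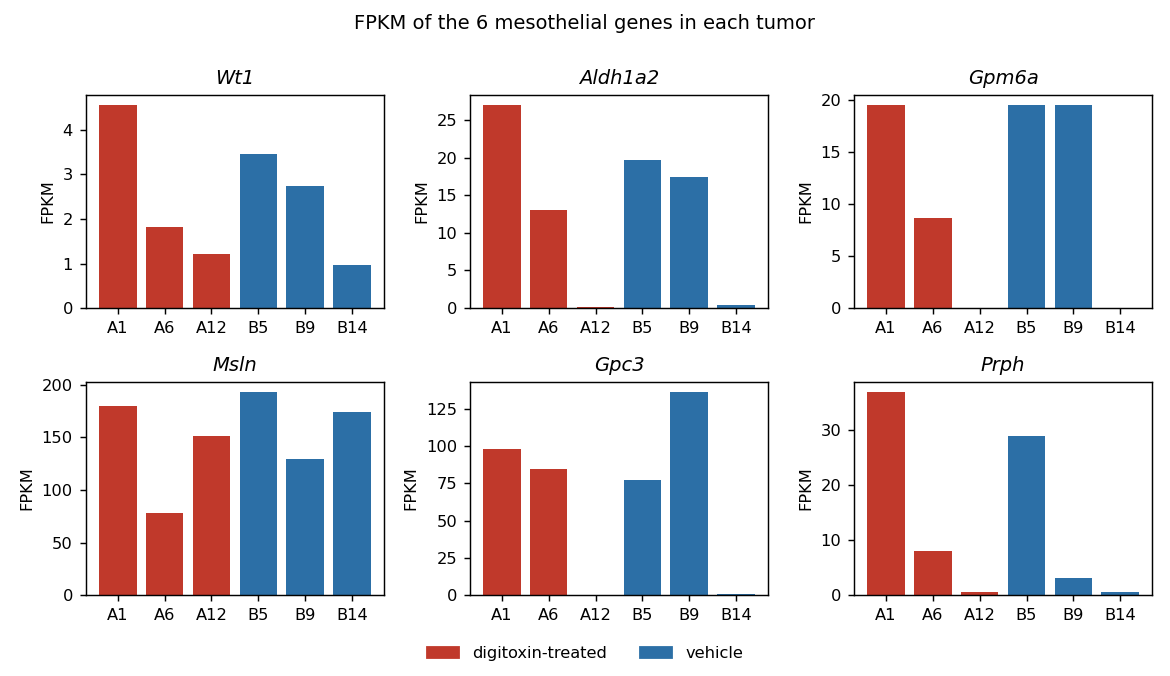
Level of each mesothelial gene (FPKM, vertical axis starting at 0) in each tumor, with 1 bar per tumor; red bars are digitoxin-treated rats and blue bars vehicle controls. Aldh1a2, Gpm6a, Gpc3 and Prph are near 0 in A12 and B14, while Msln is between 77.6 and 193 FPKM in all 6 tumors.

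Wt1 lies on chromosome 3 from 101756492 to 101802600 in the table. Its level was 4.56, 1.82, 3.45 and 2.73 FPKM in A1, A6, B5 and B9, and 1.22 and 0.965 FPKM in A12 and B14. It was a low transcript in every tumor, lowest in A12 and B14 but above 0 there, and its highest value was 4.73 times its lowest. The mean of A12 and B14 was 34.7% of the mean of the other tumors. In these bulk samples, fewer cells that make a transcript and less of it per cell cannot be told apart.

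Aldh1a2, on chromosome 8 from 75363284 to 75442554, measured 27.0, 13.0, 19.6 and 17.4 FPKM in A1, A6, B5 and B9, and 0.181 and 0.447 FPKM in A12 and B14. The 4 tumors with lung transcripts lay within 2.08 times of one another, and A12 and B14 were at 1.63% of their mean. Gpm6a, on chromosome 16 from 39144852 to 39253973, codes for a membrane proteolipid known from neurons. It was at 19.6 FPKM in A1, B5 and B9 and at 8.66 FPKM in A6, and was listed at 0 in A12 and B14. Of all rows tested, 1.36% were listed at 0 in both of these libraries.

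Gpc3, on chromosome X from 139625382 to 139993328, codes for a glypican, which carries heparan sulfate at the cell surface. Its level was 97.9, 84.9, 77.1 and 137 FPKM in A1, A6, B5 and B9, and 0 and 0.690 FPKM in A12 and B14, where A12 was listed at 0. Among the 4 members under 1 FPKM in A12 and B14 it was the most abundant, and it was highest in B9 instead of A1. Prph codes for peripherin, an intermediate filament of peripheral neurons, and measured 37.0, 7.95, 29.0 and 3.19 FPKM in A1, A6, B5 and B9, and 0.529 and 0.509 FPKM in A12 and B14. Unlike the others it was also uneven among A1, A6, B5 and B9, over a range of 11.6 times. The table places Prph on chromosome X from 115247358 to 115251138, 503 kb from Aqp5, while RefSeq's GRCr8 annotation has both genes on chromosome 7, about as near to each other. Aldh1a2, Gpm6a, Gpc3 and Prph were all under 1 FPKM in both A12 and B14 and at 2 FPKM or more in each of the other libraries, as were 340 rows or 3.16% of those tested.

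Msln, on chromosome 10 from 14932447 to 14938109, measured 179.8, 77.6, 193 and 129.7 FPKM in A1, A6, B5 and B9, and 152 and 174 FPKM in A12 and B14. A12 and B14 lay inside the range of the other tumors, and their mean was 112% of the mean of those. The lowest value was that of A6, the tumor with the highest Sftpc, the surfactant protein of alveolar type II cells.

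Among keratins of simple epithelia, Krt19 measured 1416, 599, 1659.8 and 1153 FPKM in A1, A6, B5 and B9, and 1865 and 1448 FPKM in A12 and B14. Like Msln it was lowest in A6 and next lowest in B9. Krt8 was also lowest in A6, at 398 FPKM, and highest in A12, at 2095 FPKM. The ratio of Msln to Krt19 was 0.127, 0.130, 0.116 and 0.113 in A1, A6, B5 and B9, and 0.0813 and 0.120 in A12 and B14. Podoplanin (Pdpn), a surface glycoprotein of mesothelium, lymphatic endothelium and alveolar type I cells, did not have this course, at 360.2, 538, 176 and 295 FPKM in A1, A6, B5 and B9, and 24.5 and 47.4 FPKM in A12 and B14.

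**Figure D2:**
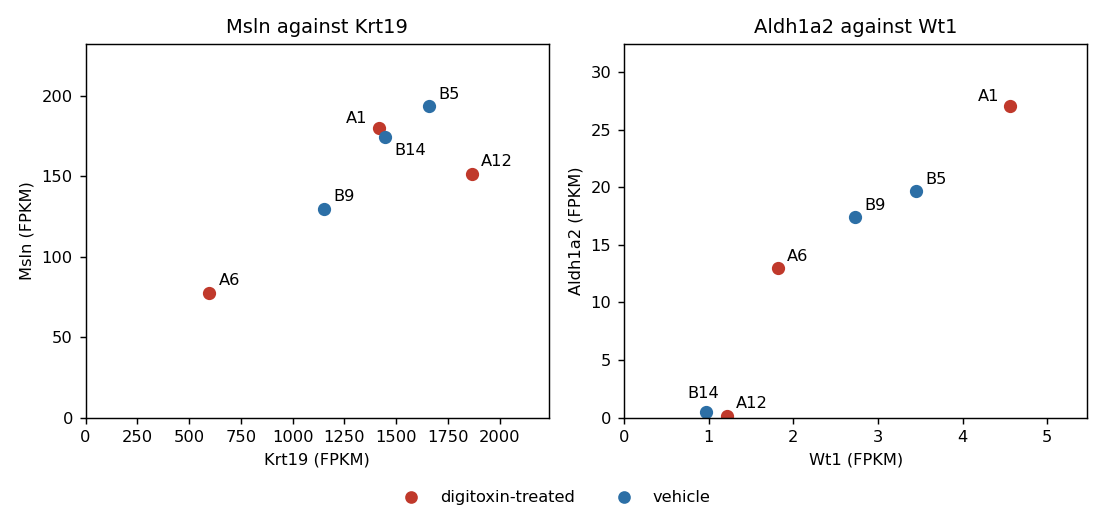
FPKM of Msln against Krt19 (left) and of Aldh1a2 against Wt1 (right), with linear axes from 0 and 1 labelled point per tumor; red points are digitoxin-treated rats and blue points vehicle controls. Msln and Krt19 are lowest in A6, while Aldh1a2 is at 0.181 and 0.447 FPKM in A12 and B14, where Wt1 is at 1.22 and 0.965 FPKM.

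The ratio of Aldh1a2 to Wt1 was 5.93, 7.14, 5.69 and 6.39 in A1, A6, B5 and B9, a spread of 1.25 times, and 0.149 and 0.464 in A12 and B14. The pair thus had a nearly fixed proportion in the tumors with lung transcripts and a far lower one in the tumors without. Relative to Sftpc the members varied more. Per 1000 FPKM of Sftpc, Wt1 was at 0.129, 0.0287, 0.180 and 0.113 in A1, A6, B5 and B9, a spread of 6.27 times, and the spread was between 4.24 times for Gpc3 and 12.1 times for Prph among the other members. Against Upk1b, a uroplakin of urothelium and mesothelium, the spread was 1.45 times for Wt1, 1.51 for Aldh1a2, 1.67 for Gpm6a, 1.26 for Msln, 2.64 for Gpc3 and 8.53 for Prph. The choice of reference mattered, since Upk1b gave the smallest spread of the 5 other mesothelial genes tested for each member except Prph. Against Rspo1 the spread was 5.25 times for Wt1, 4.36 for Aldh1a2 and 4.86 for Msln, and against Nkain4 it was 2.56, 2.26 and 3.36 times. These ratios describe 4 libraries.

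Of 12 other mesothelial genes, 10 were in the table and 5 passed a minimum mean of 1 FPKM. The 5 were Rspo1, a secreted Wnt enhancer, Cldn15, a claudin, Upk1b, Nkain4, a membrane protein, and Ptgis, the prostacyclin synthase. Upk1b measured 42.3, 23.0, 46.4 and 31.0 FPKM in A1, A6, B5 and B9, and 0.232 and 0.633 FPKM in A12 and B14. Upk1b, Nkain4 and Ptgis were under 1 FPKM in both A12 and B14, while Rspo1 was at 2.54 and 3.85 FPKM there and Cldn15 at 1.21 and 2.57 FPKM. The summed level of the 10 genes was 138, 127, 141 and 93.0 FPKM in A1, A6, B5 and B9, and 5.90 and 8.85 FPKM in A12 and B14.

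Several defining markers of the lining were under 1 FPKM or listed at 0. Calb2, the calretinin used to mark mesothelium, was at most 0.0634 FPKM, and Dmkn, Itln1 and Tm4sf5 were each under 1 FPKM in all tumors. Bnc1, a zinc finger protein of mesothelium and stratified epithelium, was highest in B14, at 1.33 FPKM. Among the tumors with lung transcripts, Wt1 and Aldh1a2 ran in the order A1, B5, B9, A6 and Sftpc in the order A6, A1, B9, B5. The other mesothelial genes did not share 1 order: Cldn15 and Upk1b were lowest in A6, Rspo1 and Nkain4 were highest there, and Ptgis was highest in A1 and next in A6.

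**Figure D3:**
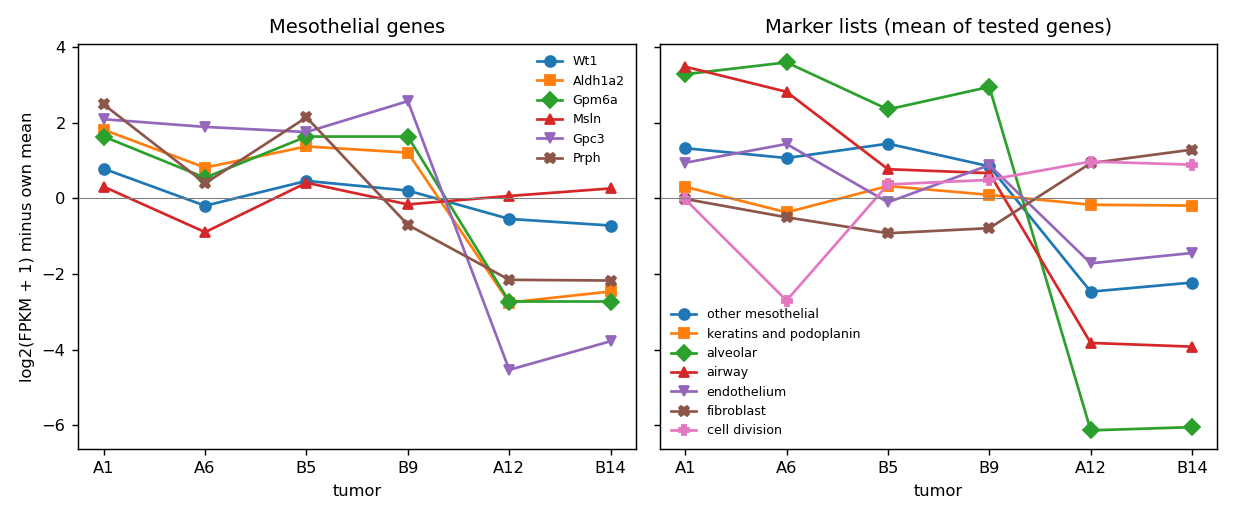
Change from tumor to tumor of each mesothelial gene (left) and of the mean over the tested genes of 7 marker lists (right), as log2(FPKM + 1) minus its own mean over the 6 tumors; lines only join the points of a gene or list. Gpc3, Gpm6a, Aldh1a2 and Prph are lowest in A12 and B14, as are the other mesothelial, alveolar, airway and endothelial lists, and Msln is not.

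Likeness of profiles was measured as the root mean square (RMS) difference over tumors between log2(FPKM + 1) values, each centred on its own mean. The measure takes in the size of a change as well as its order, and since A12 and B14 form a cluster no correlation was computed. Of 11 marker lists, the other mesothelial list was nearest to Aldh1a2 (RMS difference 0.31), Gpm6a (0.47) and Prph (0.89). The list of keratins and podoplanin was nearest to Msln (0.32) and Wt1 (0.34). This list averages genes of unlike course, since A12 and B14 were at 137% to 174% of the other tumors for the 3 keratins and at 10.5% for Pdpn, against 34.7% for Wt1. The airway list was nearest to Gpc3 at 1.15, followed by the other mesothelial list at 1.35. The alveolar list was the farthest of the 11 from Wt1 (3.90), Msln (4.48) and Prph (3.03), and the neuron list from Aldh1a2 (2.87), Gpm6a (2.95) and Gpc3 (3.97). With a pseudocount of 0.1 the neuron list was also the farthest from Prph, at 3.70 against 3.54 for the alveolar list. A list's profile averages only its tested genes. The neuron list had 3 of 12 (Stmn2, Th and Tubb3), each higher in A12 and B14 than elsewhere, and the Schwann list 3 of 6.

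Over A1, A6, B5 and B9 alone the other mesothelial list was nearest to Prph only, at 1.08. There the keratin and podoplanin list was nearest to Wt1 (0.15), Aldh1a2 (0.18) and Msln (0.24), the neuron list to Gpm6a (0.19) and the leukocyte list to Gpc3 (0.24). Wt1 and Aldh1a2 were the closest pair of members over these 4 tumors, at 0.0460, against an RMS difference of 1.41 over all 6. Since Gpm6a and Prph are known from neurons, neuron and Schwann cell markers were read as well. Snap25, Syp, Syt1, Elavl3, Elavl4, Gap43, Chga and Dbh were each under 1 FPKM in all tumors, and so was the Schwann cell gene Sox10, with Cdh19 listed at 0 throughout. The others on these lists were higher, with Stmn2 at up to 42.1 FPKM, Th at up to 15.5, Tubb3 at up to 6.17, Pmp22 at up to 311, Mbp at up to 6.48 and S100b at up to 1.86. The neuron list summed to between 8.52 and 16.4 FPKM in the tumors with lung transcripts and to 43.7 and 59.6 FPKM in A12 and B14, where Gpm6a and Prph were lowest. The part of these cells in a member's level was not tested.

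**Figure D4:**
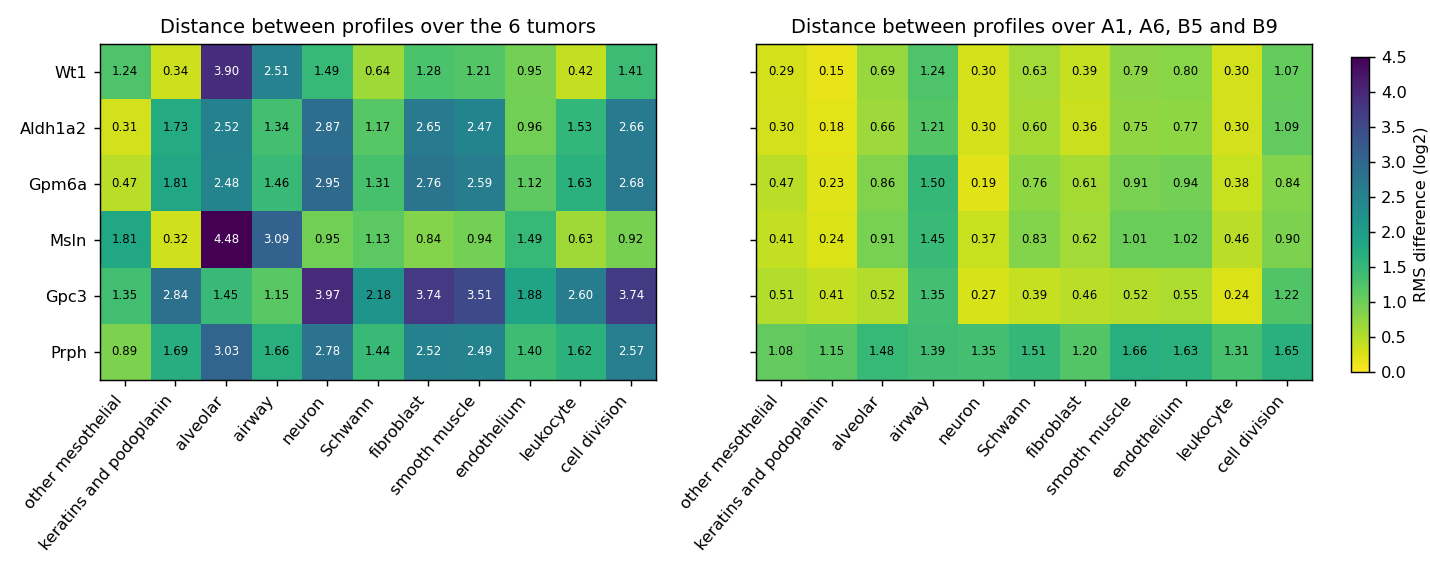
RMS difference between the centred log2(FPKM + 1) profile of each mesothelial gene (rows) and of each marker list (columns), over all 6 tumors (left) and over A1, A6, B5 and B9 (right); yellow is near and dark blue far. Over 6 tumors Aldh1a2 is 0.31 from the other mesothelial list and Msln 0.32 from the keratin and podoplanin list, and over the 4 tumors Prph is 1.08 or more from each list.

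Among the 10739 other genes tested, those nearest in profile to Wt1 were Itgbl1, an integrin-like secreted protein, Oas3, an interferon-induced oligoadenylate synthetase, Pex7, a peroxisomal import receptor, RGD1307100 and Crls1, the cardiolipin synthase, with RMS differences from 0.13 to 0.19. Itgbl1 measured 5.41, 2.43, 4.10 and 3.87 FPKM in A1, A6, B5 and B9, and 2.13 and 1.10 FPKM in A12 and B14, a low transcript throughout like Wt1. The genes nearest to Aldh1a2 were Gpm6a, Bpifb1, a secreted airway protein, Them5, Rmdn2 and Slc43a3, at RMS differences from 0.27 to 0.35. Of the other mesothelial genes tested, Upk1b ranked 6 for Aldh1a2 at 0.39, Nkain4 29, Ptgis 41, Rspo1 512 and Cldn15 835. For Wt1 they ranked lower, from 2190 for Cldn15 to 10486 for Nkain4, and Aldh1a2 itself ranked 10003. Wt1 ran only from 0.965 to 4.56 FPKM, so its shallow profile on this scale lies far from any gene with a large fall. These ranks therefore do not show whether Wt1 goes with these genes. Over A1, A6, B5 and B9 alone Wt1 was 0.0460 from Aldh1a2. Nearest to the mean of the 6 members were Steap4, a metalloreductase, Aqp4, a water channel, Pon1, Fam180a and Tmem30b. Steap4 measured 38.0, 23.5, 41.7 and 34.9 FPKM in A1, A6, B5 and B9, and 3.40 and 4.54 FPKM in A12 and B14.

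The members' relatives were mixed. Of 22 in the table, 13 were under 1 FPKM in both A12 and B14, of which 3 passed the minimum mean. The glypican Gpc4 measured 24.4, 34.8, 11.7 and 19.9 FPKM in A1, A6, B5 and B9, and 2.54 and 6.85 FPKM in A12 and B14. Gpc1, picked after its values were seen, had the opposite course to Gpc3, at 3.08, 2.60, 0.716 and 1.30 FPKM in A1, A6, B5 and B9, and 16.3 and 25.0 FPKM in A12 and B14. Vim, the vimentin filament of mesenchymal cells, was between 1117 FPKM in B9 and 1975 FPKM in B14, and Nefh, a neurofilament, was between 0.269 FPKM in A6 and 8.30 FPKM in A12, unlike Prph. Egr1, whose zinc fingers resemble those of WT1, measured 4.11, 2.02, 5.21 and 4.92 FPKM in A1, A6, B5 and B9, and 11.1 and 15.9 FPKM in A12 and B14. Upk3bl, a gene named for its likeness to Upk3b and also picked after its values were seen, measured 10.98, 0.419, 45.8 and 24.4 FPKM in A1, A6, B5 and B9, and 24.5 and 16.7 FPKM in A12 and B14.

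Wt1 also acts in podocytes, the epicardium and the gonad, and 10 genes of those tissues were read. The podocyte gene Nphs1 was at most 0.0827 FPKM, and Nr5a1, a gonadal regulator, was under 1 FPKM in all tumors. Other genes of these tissues were present, with Ptpro, a podocyte phosphatase, at up to 12.4 FPKM, Synpo, an actin-binding protein, at up to 16.1 FPKM and Amhr2, the receptor of anti-Müllerian hormone, at up to 2.75 FPKM. Tcf21, a transcription factor of epicardial and lung mesenchyme, measured 38.3, 54.1, 16.6 and 31.5 FPKM in A1, A6, B5 and B9, and 0 and 0 FPKM in A12 and B14. Its order among the tumors with lung transcripts was that of Sftpc and not that of Wt1. Podxl, a podocyte and endothelial sialomucin, measured 28.4, 38.4, 13.98 and 21.0 FPKM in A1, A6, B5 and B9, and 12.7 and 12.5 FPKM in A12 and B14.

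Aldh1a2 has a pair of paralogs that also make retinoic acid, and these had opposite patterns. Aldh1a1 measured 145, 228, 68.8 and 61.3 FPKM in A1, A6, B5 and B9, and 0.196 and 0.222 FPKM in A12 and B14. Aldh1a3 measured 31.4, 0.491, 99.9 and 103 FPKM in A1, A6, B5 and B9, and 170.4 and 139.8 FPKM in A12 and B14. Aldh1a3 was thus the most abundant of the 3 in A12, B14, B5 and B9, and Aldh1a1 in A1 and A6. Crabp2, a carrier of retinoic acid to the nucleus, was at 6.26 FPKM in A6 and between 51.3 and 138 FPKM elsewhere.

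The groups as labelled overlapped in the level of every member. With limma on log2(FPKM + 1), 0 of the 10749 rows tested, or 0%, passed an adjusted p under 0.05, and the lowest adjusted value was 0.926. There were 36 rows, 0.335%, past an unadjusted p of 0.05 in limma, and 446 when replicate numbers were blocked. Groups did not overlap in 447 rows or 4.16% of those tested, and in 0 of the 6 members. These counts turned on A12, without which 2114 rows passed an unadjusted p of 0.05 in limma and 5479 did not overlap. The mean log2 level was lower with digitoxin for 4 of the 6 members and for 64.9% of all rows. Under median-of-ratios scaling the all-row median log2 fold change shifted by 0.18, to 0.02, which left 3 of the 6 members and 48.6% of rows lower.

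In the digitoxin tumors Wt1 had a mean of 2.53 ± 1.78 FPKM (SD, n = 3), and in the vehicle tumors 2.38 ± 1.28 FPKM (SD, n = 3). Its log2 fold change was 0.03 with a standard error of 0.51. Aldh1a2 had means of 13.4 ± 13.4 FPKM and 12.5 ± 10.5 FPKM (SD, n = 3 each), a log2 fold change of -0.08 with a standard error of 1.52, which was 0.11 after that scaling. The log2 fold changes of Gpm6a, Gpc3 and Prph were -0.36, -0.37 and 0.49, with standard errors of 1.59, 2.37 and 1.5. For Msln, which the study had not picked by this contrast, the means were 136 ± 52.8 FPKM with digitoxin and 166 ± 32.6 FPKM with vehicle (SD, n = 3 each). Its log2 fold change was -0.35 with a standard error of 0.36 and an adjusted p from limma of 0.926, a difference within the spread between tumors. Same-numbered tumors were 179.8 against 193 FPKM, 77.6 against 129.7 FPKM and 152 against 174 FPKM, so Msln was lower with digitoxin at all 3 numbers. The labels do not state that these numbers are pairs. Set the other way, A1 at 179.8 FPKM was above B9 at 129.7 FPKM, and A6 at 77.6 FPKM below B5 at 193 FPKM. With the replicate number as a block the standard error was 0.23 and the adjusted p from limma 0.640. This block puts A12 and B14, the tumors without lung transcripts, together. The block left the other fold changes as they were and brought the standard errors to 0.32 for Gpc3, 0.35 for Aldh1a2, 0.39 for Gpm6a, 0.37 for Prph and 0.35 for Wt1.

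The sign of these values turned on which tumors were kept. Without A12 the log2 fold changes of Aldh1a2, Gpm6a and Gpc3 were 1.27, 0.91 and 1.81, and without B14 they were -1.33, -1.82 and -2.35. Wt1 was at -0.35 when A1 was dropped and at 0.31 when A12 was, and Prph at -0.64 and 1.68. Msln lay between -0.59 and 0.0141 and was below 0 in 5 of the 6 fits that drop 1 tumor. With A12 and B14 both left out, so that 2 tumors with lung transcripts stood in each group, Wt1 was at -0.0403, Aldh1a2 at 0.0230, Gpm6a at -0.54, Gpc3 at -0.17, Prph at 0.72 and Msln at -0.42. With A1 and B9 both left out, on unscaled values, all 6 were lower with digitoxin, from -0.86 for Prph to -0.24 for Wt1. Msln was then at 77.6 and 152 FPKM against 193 and 174 FPKM, without overlap, as were 1367 of the 10749 rows.

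**Figure D5:**
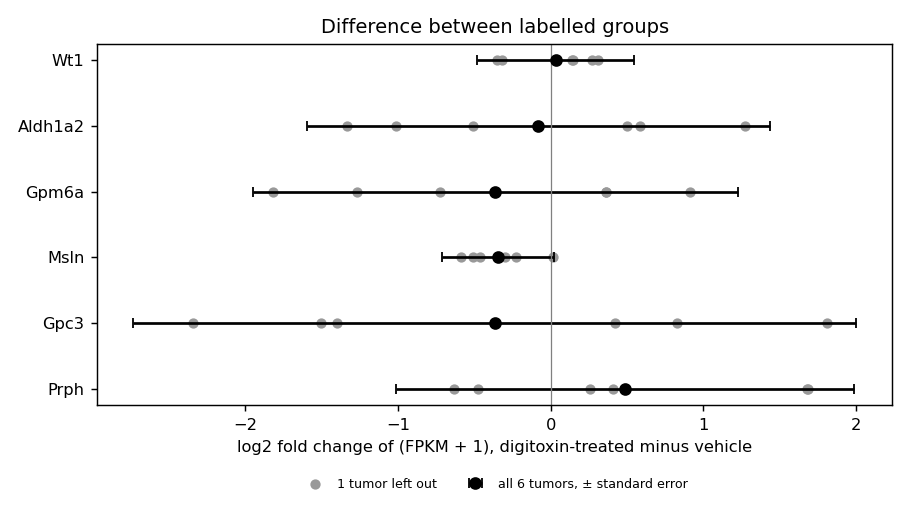
Log2 fold change of (FPKM + 1), digitoxin-treated minus vehicle, for each mesothelial gene; black points with bars are the fit to all 6 tumors ± its standard error without the replicate block, and grey points the fits that leave out 1 tumor each. Each of these bars crosses 0, and the grey points of Gpc3 run from -2.35 to 1.81.

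The median log2 fold change of the 6 members was -0.21, against -0.16 over all rows. That of the 5 tested other mesothelial genes was 0.05, with 2 lower and 3 higher, and that of the 18 retinoid pathway genes 0.23, with 7 lower and 11 higher. Dropping 1 tumor turned these medians, which ran from -0.91 without B14 to 1.09 without A12 for the members, from -1.13 to 1.25 for the other mesothelial genes and from -0.12 to 0.36 for the retinoid genes, with the lowest and highest again without B14 and without A12. The largest differences among retinoid genes were those of Aldh1a3 and Crabp2, with log2 fold changes of -2.49 and -1.21 and standard errors of 1.62 and 1.07. Medians of the cell-type lists were 0.57 for alveolar, 1.67 for airway, 0.59 for endothelium, 0.20 for fibroblast, 0.28 for smooth muscle, -0.26 for neuron, 0.28 for Schwann, -0.35 for leukocyte and -1.21 for cell division genes. The last rests on A6, where the mean log2 level of these genes was 2.42, against 5.09 to 6.09 in the other tumors. The neuron and Schwann medians rest on 3 tested genes each. The keratin and podoplanin list had a median of -0.21, the relatives 0.14 and the podocyte, epicardial and gonadal genes 0.08. The part of these cell types in the members' values was not tested.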

How the data were processed

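Messenger RNA from micropunched PAIII tumors of 6 rats was sequenced by the authors as single reads. They aligned the reads with Bowtie 2 and TopHat 2 and deposited FPKM values from Cufflinks 2, with 1 column per tumor and no scaling between tumors stated. The submitters' processing notes list the human build hg19 for these rat samples, and no rat build is given in the sources used here, so positions are printed as the table holds them. Each column was matched to a sample by the rat number. For a symbol with several rows, the row of highest mean was taken.

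Rows whose mean over the 6 tumors reached 1 FPKM (10749 rows) entered limma 3.58.1 (R 4.3.3) as log2(FPKM + 1), with lmFit and a trended eBayes. Two-sided p-values received the Benjamini-Hochberg adjustment over these rows. Fold changes on this scale understate changes of low transcripts. The study's Cuffdiff test needs the reads and was not run. Nothing says more than that the samples come from separate rats, and n = 3 limits precision. Summaries and figures used Python 3.11.15 with pandas 2.3.3, numpy 2.4.6 and matplotlib 3.10.9. The fit was also run on simulated data with independent noise for each gene. Genes here share the split of A12 and B14 from the other tumors, so that run does not show how the fit behaves on such data.

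The members and the 14 gene lists were chosen with earlier results of these data known. Named genes are the members, the most abundant and most changed genes of each list, and the 5 genes nearest in profile to Wt1, Aldh1a2 and the members' mean. Gpc1 and Upk3bl were picked after their values were seen, and markers near 0 are named to define their cell type. Lrrn4cl was looked up in the same way as Upk3bl, and was between 0.737 FPKM in A12 and 2.17 FPKM in A1. Some listed genes are not reported here. Results were recomputed with each tumor dropped, with A12 and B14 or A1 and B9 dropped together, with the replicate number blocked, with untrended eBayes, after median-of-ratios scaling, on unfiltered rows and at a pseudocount of 0.1. Deviations from the group means of same-numbered tumors correlated across genes at r = 0.426, 0.606 and 0.869, while A1 with B9 reached 0.644 and A6 with B5 0.612. By the rule that each same-numbered r exceed 0.1, a blocked fit was added, while the main fit has no pairs. These correlations come from the same tumors, and A1 with B9 and A6 with B5 were higher than the same-numbered matches of those tumors. They therefore do not show that equal numbers are true pairs. The labels state no shared day or batch. Promoter stretches and gene names are from RefSeq, build GRCr8; all 8 symbols matched a RefSeq gene and 7 had a promoter entry.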

Additional observations from a re-analysis of the deposited data

How the results depend on the processing

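With FPKM alone the depth is unknown, so values near 1 FPKM, Wt1 among them, have no stated precision. Of 78 refitted member fold changes, 59 kept their direction and 19 reversed. No filter, untrended eBayes and the block cannot move a fold change, and of the 60 other refits 41 kept it. Reversals outside the fits that leave out 1 tumor were Aldh1a2 at 0.11 with median-of-ratios scaling and at 0.0230 without A12 and B14, Wt1 at -0.0403 without A12 and B14 and at -0.24 without A1 and B9, and Prph at -0.86 without A1 and B9. With 1 tumor left out, Wt1 ran from -0.35 to 0.31, Aldh1a2 from -1.33 to 1.27, Gpm6a from -1.82 to 0.91, Msln from -0.59 to 0.0141, Gpc3 from -2.35 to 1.81 and Prph from -0.64 to 1.68. In these fits, the number of lower members ran from 1 to 6, the members' median from -0.91 to 1.09, that of other mesothelial genes from -1.13 to 1.25, and that of retinoid genes from -0.12 to 0.36. The other mesothelial median was also -0.0893 with a pseudocount of 0.1 and -0.0247 without A1 and B9. Rows past an adjusted p of 0.05 numbered 0 to 2 with 1 tumor left out and 2 without A12 and B14; the 2 were Mir3561 and Mir3567 in both, listed at 0 in all but B5 and B9. Rows past an unadjusted p of 0.05 numbered 13 to 2114 with 1 tumor left out (2114 without A12), 1183 without A12 and B14, 11 without A1 and B9, 133 with no filter, and 446 when replicate numbers were blocked. The block left the members' fold changes as they were with smaller standard errors. Rows without overlap numbered 548 to 5479 with 1 tumor left out, 6153 without A12 and B14 and 1367 without A1 and B9; smaller groups overlap less often by construction. The number of members nearest to the other mesothelial list went from 3 to 1 over A1, A6, B5 and B9.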
